A study of Sus scrofa with 16 samples.

Results

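The subject is 10 chemokine genes in pig liver, namely CCL2, CCL3L1, CCL4, CCL5, CCL19, CXCL2, CXCL9, CXCL10, CXCL12 and IL8 (the current symbol is CXCL8). They were found as the array probes whose gene name, or gene symbol in the description, was 1 of these names, which gave 17 of the 43603 non-control probes and 10 of 4832 named genes. The liver RNA was from 16 pigs of the species Sus scrofa that weighed 20 kg and were fed ad libitum. A low-RFI line (RFIneg) and a high-RFI line (RFIpl) gave 8 pigs each. RFI is residual feed intake, the part of feed intake that growth and upkeep do not account for, and the study asks how selection on it is reflected in liver transcripts. Each pig had its own 1-colour array. No unselected line was sampled, and sex, litter and generation are not given in the sources used here, so selection on RFI and any other difference of the lines cannot be told apart.

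Chemokines are small secreted proteins that bind receptors on leukocytes and steer their movement along gradients. In liver they are made by hepatocytes, Kupffer cells (the resident macrophages), sinusoidal endothelium, stellate cells and lymphocytes, and several are switched on by bacterial products or cytokines. CCL members have their first cysteines side by side, and CXCL members have a residue between them. Those that bind CXCR2 call neutrophils, those that bind CCR2 call monocytes, and those that bind CXCR3 call activated T and NK cells, while CXCL12 and CCL19 serve homing in unchallenged tissue.

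The stretch of transcript that each probe read decides what its value stands for, so probes that lie in protein-coding sequence are shown as printed in the scanner files. They are read 5′ to 3′. Capitals mark a cysteine codon for CCL3L1 and CCL5 and the stop codon for CCL4, each in the frame that starts after 1 base of the probe. The CCL3L1 and CCL5 probes have other frames without a stop codon too, and the frame was not checked against a transcript. The CCL19 and CXCL12 probes have no marked codon.
CCL3L1 A_72_P035356: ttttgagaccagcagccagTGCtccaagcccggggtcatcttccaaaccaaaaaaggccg
CCL5 A_72_P115401: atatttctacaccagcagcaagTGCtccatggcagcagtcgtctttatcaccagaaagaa
CCL4 A_72_P223332: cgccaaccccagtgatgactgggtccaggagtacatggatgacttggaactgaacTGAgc
CCL19 A_72_P150086: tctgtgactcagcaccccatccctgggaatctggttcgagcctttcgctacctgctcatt
CXCL12 A_72_P232477: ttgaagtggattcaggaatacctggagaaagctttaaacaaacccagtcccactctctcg
In the frame used, the CCL3L1 and CCL5 probes each span a cysteine codon of the conserved chemokine fold, and the CCL4 probe runs to the end of its reading frame. CCL3L1 belongs to a group of closely related genes, and how well its probe tells them apart was not tested. The files place no probe on a named genome build, so positions are not given. In the pig gene table of the assembly Sscrofa11.1, CCL4 and CCL3L1 are direct neighbours in a cluster on chromosome 12 that also holds CCL2 and CCL5. CXCL9 and CXCL10 are separated there only by ART3, and CCL19 lies beside CCL21.

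A level is the log2 signal of a probe minus the 75th percentile of its array, and a change is the low-RFI mean level less the high-RFI mean level. A probe's level depends on its own binding strength, so levels are compared between pigs and not between genes. Arrays lay on 4 slides, each with 2 pigs of each line, and 28576 to 34977 probes per array were well above background. On the linear scale that percentile lay between 320.0 and 508, with a median local background between 29.0 and 40.0. The hepatocyte list had 7 markers on the array, ALB and APOA1 among them, and all 7 were well above background on all 16 arrays. The scanner software marked 5 arrays for evaluation, all of high-RFI pigs (1, 2, 3, 6 and 8), and no array of a low-RFI pig.

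All 16 tested chemokine probes were well above background on all 16 arrays. They stand for 9 of the 10 genes. The single probe of IL8 was well above background on only 7 arrays, 3 of low-RFI and 4 of high-RFI pigs, and was not tested. A gene with several probes is led by its brightest one.

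No chemokine was called different between the lines. In limma, 0 of 16 chemokine probes had a Benjamini-Hochberg adjusted p under 0.05, where 3 of 30097 tested probes did (0.00997%), all 3 lower in low-RFI liver. At an unadjusted p under 0.05 the counts were 1 of 16 chemokine probes (6.25%) and 1640 of 30097 probes (5.45%), so the chemokine count was near the background. Of the background probes 741 were higher (2.46%) and 899 lower (2.99%) in low-RFI liver at that limit. Of the 16 chemokine probes 8 had a higher and 8 a lower mean in the low-RFI line, and their median change was −0.01 against −0.00 over all tested probes. For 0 of 16 chemokine probes were the lines without overlap, as for nearly all tested probes (13 of 30097 without overlap, 0.0432%). What set several of these genes apart was their spread between pigs of the same line: 9 of 16 probes, for 5 genes, had a within-line SD above the 90th percentile of all tested probes. As the arrays measured whole tissue, more cells of a type and more RNA per cell cannot be told apart.

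**Figure D1:**
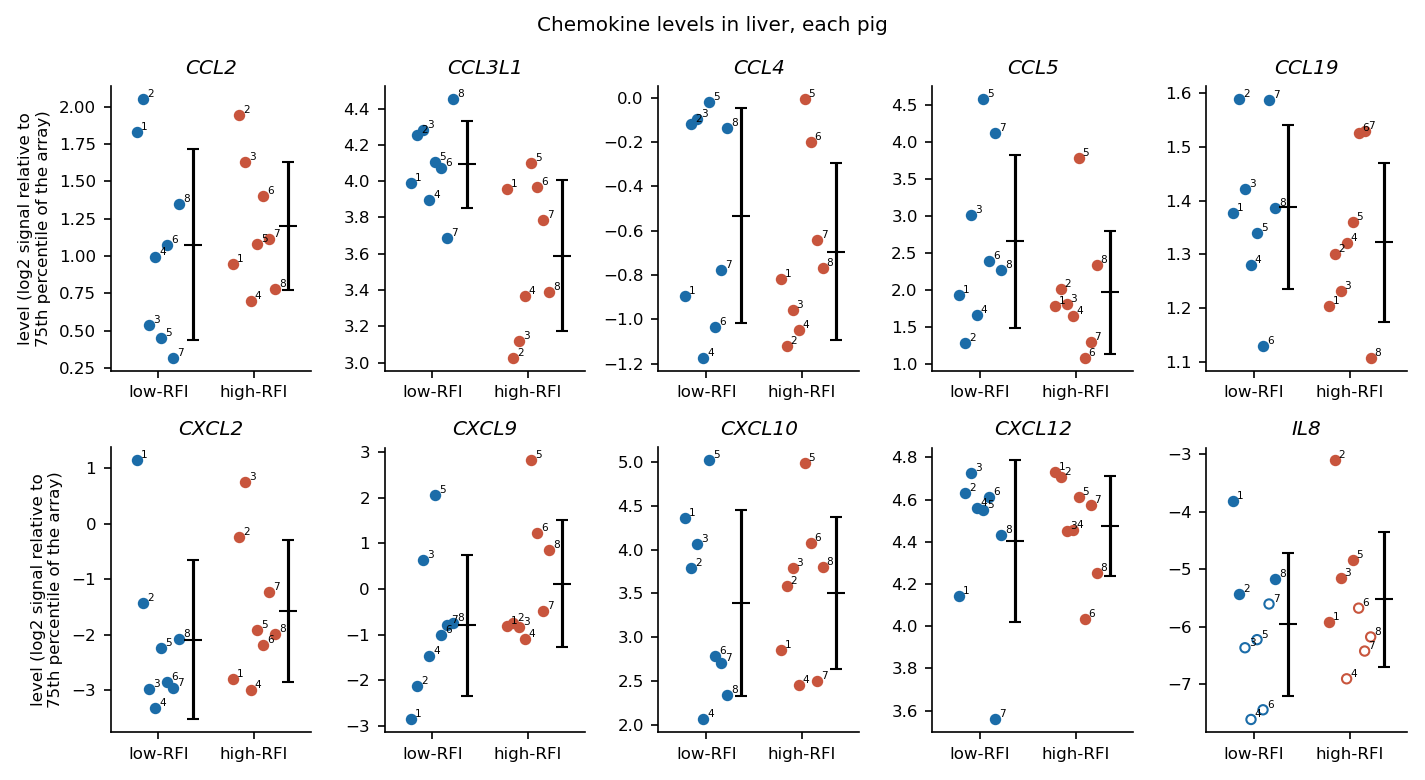
Level of each chemokine (log2, against the array's 75th percentile, y axis, scaled per gene) in each pig, numbered by replicate, with the mean and SD of each line of 8 pigs beside the points. Hollow points are arrays where IL8 was not well above background, and both lines cover overlapping ranges for every gene.

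CCL3L1, a ligand of the macrophage inflammatory protein group, came closest to a line difference. Its level ran from 3.69 over a median of 4.09 to 4.45 in low-RFI pigs. In high-RFI pigs it ran from 3.03 over a median of 3.59 to 4.10. All 8 low-RFI pigs lay above the high-RFI mean, while high-RFI pigs 1, 5, 6 and 7 lay inside the low-RFI range and pigs 2, 3, 4 and 8 below all low-RFI pigs. The means were 4.09 ± 0.24 and 3.59 ± 0.42 (SD, n = 8 each), a change of +0.50 (SE 0.166, 95% interval 0.15 to 0.85), or 1.42-fold. The limma p was 0.00736 before adjustment and 0.649 after it, and the adjusted p was 0.515 or higher under every alternative run, so the difference did not pass. Within the 4 slides the change was +0.01, +0.49, +0.60 and +0.92. The sample numbers in the deposited files fall into 2 series of 4 pigs per line, whose meaning is not given, and the change was +0.74 in the first and +0.27 in the second. Without the 5 marked arrays, an alternative chosen after seeing the data, it was +0.34.

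CCL4, of the same protein group as CCL3L1, had a level of −1.17 to −0.02 in low-RFI pigs (median −0.46) and of −1.12 to −0.01 in high-RFI pigs (median −0.79). The ranges were nearly the same, and the change was +0.16 (SE 0.209, limma adjusted p = 0.983). With each pig left out it ran from +0.09 (without low-RFI pig 5) to +0.26 (without high-RFI pig 5), and moved by over 1.5 times also without low-RFI pig 2, 3, 4 or 8 or high-RFI pig 2. It was +0.034 without the 5 marked arrays and +0.038 with array position as a block. Within slides it was +0.06, +0.11, +0.28 and +0.21, and within the number series +0.42 and −0.09. The pigs divided into a group near the top and a group near the bottom in both lines: low-RFI pigs 2, 3, 5 and 8 and high-RFI pigs 5 and 6 lay at −0.20 or higher, and all others at −0.64 or lower.

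CCL5, made mainly by T and NK cells and drawing further T cells and monocytes, had some of the widest spread. Its level was 1.29 to 4.58 (median 2.33) in low-RFI pigs. In high-RFI pigs it was 1.08 to 3.78 (median 1.80). Low-RFI pigs 5 (4.58) and 7 (4.12) and high-RFI pig 5 (3.78) stood above the rest, followed by low-RFI pig 3 (3.01), and the highest pig had 11.3-fold the signal of the lowest. The line means of 2.66 ± 1.17 and 1.97 ± 0.83 (SD, n = 8 each) differed by +0.69 (SE 0.459, 95% interval −0.28 to 1.65, limma adjusted p = 0.977). This value was +0.41 without low-RFI pig 5 and +0.94 without high-RFI pig 5. It was +0.41 without the 5 marked arrays, +0.32 with array noise as a covariate and +0.31 with array position as a block. Within slides it was +1.27, +0.36, +1.23 and −0.11, and within the number series +0.16 and +1.21. The second probe gave +0.66 and followed the first with r = 0.995 over the 16 pigs. The third, on a cDNA clone, gave +0.20 with r = 0.849. The within-line SD of the leading probe lay at percentile 98.0 of all tested probes.

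Markers of T and NK cells moved with CCL5 between pigs. Of 14 such markers on the array 13 were tested, and PRF1 was too dim. All 13 were above their 16-pig mean in low-RFI pig 5 and in high-RFI pig 5, and 12 of 13 were in low-RFI pigs 3 and 7. In the other pigs between 0 and 8 of 13 were. On levels centred within each line, all 13 had an r above 0.5 with CCL5 over 16 pigs (0.53 to 0.93, median 0.81), where 5.69% of 4022 named genes did. The summed level of the list was 2.24 to 3.78 over low-RFI pigs and 2.30 to 3.45 over high-RFI pigs, and 0 of 13 markers were called between the lines (10 higher, 3 lower, median change +0.16). Of 7 Kupffer cell and macrophage markers, 4 (VSIG4, CD5L, C1QA and AIF1) had an r above 0.5 with CCL5, with a median of 0.52 over the 7. The part of either list in the CCL5 values was not tested.

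CCL2, the main CCR2 ligand that draws monocytes out of blood, lay at 0.32 to 2.05 in low-RFI pigs (median 1.03). In high-RFI pigs it lay at 0.70 to 1.94 (median 1.10). The change was −0.12 (SE 0.253, 95% interval −0.66 to 0.41, limma adjusted p = 0.998), and the second probe gave +0.02 with r = 0.971 between probes. Low-RFI pig 2 (2.05), high-RFI pig 2 (1.94), low-RFI pig 1 (1.83) and high-RFI pig 3 (1.63) were highest. Low-RFI pigs 7, 5 and 3, which were among the highest for CCL5, were the lowest for CCL2 (0.32, 0.45 and 0.54). The direction of the small line difference turned with array noise as a covariate (+0.34), without the marked arrays (+0.11) and with array position as a block (+0.02).

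CXCL2, a CXCR2 ligand that draws neutrophils and rises early after bacterial products, had a range of 4.46 on the log2 scale between the lowest and the highest pig. Low-RFI pigs lay at −3.31 to 1.14 (median −2.54). High-RFI pigs lay at −2.99 to 0.75 (median −1.95). In each line most pigs were low and a few were high: low-RFI pig 1 (1.14), high-RFI pig 3 (0.75) and high-RFI pig 2 (−0.23). The change of −0.51 (SE 0.616, 95% interval −1.81 to 0.78, limma adjusted p = 0.983) was smaller than the within-line SD of 1.36, which lay at percentile 99.3 of all tested probes. It was −0.97 without low-RFI pig 1, −0.18 without high-RFI pig 3, −0.32 without high-RFI pig 2 and −0.34 without low-RFI pig 4, and turned to +0.57 with array noise as a covariate. It was −0.04 without the 5 marked arrays, −0.11 with array position as a block and −0.13 under normexp. Within slides it was +0.30, +0.52, −0.80 and −2.08. Both high-RFI pigs sat on marked arrays, and low-RFI pig 1 did not. The second CXCL2 probe shares a run of 29 bases with the first, so it is not a fully separate measurement. It gave −0.68 with r = 0.992.

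IL8, the other CXCR2 ligand, was the dimmest member. Its level was −7.61 to −3.82 in low-RFI pigs and −6.90 to −3.11 in high-RFI pigs. The highest were high-RFI pig 2 (−3.11) and low-RFI pig 1 (−3.82), both also among the 3 highest for CXCL2. With no filter on dim probes the change was −0.43 (SE 0.559, limma adjusted p = 0.998), and 9 of the 16 values behind it were not well above background.

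CXCL9 and CXCL10 are ligands of CXCR3 that interferon gamma induces and that draw activated T cells. CXCL9 had the widest range of the tested members, 51.3-fold between pigs. Its level was −2.86 to 2.05 in low-RFI pigs (median −0.91) and −1.10 to 2.82 in high-RFI pigs (median −0.62). High-RFI pig 5 (2.82) and low-RFI pig 5 (2.05) were highest, and low-RFI pigs 1 (−2.86) and 2 (−2.12) lay below all others. Means of −0.79 ± 1.55 and 0.12 ± 1.39 (SD, n = 8 each) gave a change of −0.91 (SE 0.663, 95% interval −2.30 to 0.49, limma adjusted p = 0.979). It was −0.52 without high-RFI pig 5, −1.67 with array noise as a covariate and −1.43 with array position as a block. Within slides it was −1.67, −1.44, +0.61 and −1.12, and within the number series −0.58 and −1.23. The mean CXCL9 level over both lines was −1.16 in the first number series and 0.49 in the second.

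CXCL10 lay at 2.06 to 5.02 in low-RFI pigs (median 3.29) and at 2.45 to 4.99 in high-RFI pigs (median 3.68). Low-RFI pig 5 (5.02) and high-RFI pig 5 (4.99) were again highest, but low-RFI pig 1 was the third at 4.36, although it had the lowest CXCL9. The change was −0.11 (SE 0.44, 95% interval −1.04 to 0.81, limma adjusted p = 0.998). The second probe gave −0.03 and followed the first with r = 0.996. The sign turned with array noise as a covariate (+0.48) and without the marked arrays (+0.08). Within slides the change was −0.22, +0.40, +0.95 and −1.59, and within the number series +0.40 and −0.63. The mean CXCL10 level over both lines was 4.49 on slide 2, which held pig 5 of each line. It was 2.95 to 3.36 on the other slides. With slide as a block the SE of the change was 0.356. The part of the slide in the spread between pigs was not tested. The within-line SDs of CXCL9 and CXCL10 lay at percentiles 99.5 and 97.7.

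The leading probes of the homing chemokines had within-line SDs at percentiles 48.1 (CXCL12) and 3.92 (CCL19) of all tested probes. Among probes of similar mean level they lay at percentiles 64.2 (CXCL12) and 4.78 (CCL19). CXCL12, the CXCR4 ligand that stromal and sinusoidal cells make, lay at 3.56 to 4.73 over low-RFI pigs and 4.04 to 4.73 over high-RFI pigs, a change of −0.07 (SE 0.157, limma adjusted p = 0.998). Its second probe, the coding one shown above, gave +0.12, and the probes did not follow each other over pigs (r = −0.098). CCL19, a CCR7 ligand that guides dendritic cells and naive T cells, is in the same position. Its brightest probe, named only in its description, varied 1.40-fold over all pigs, with a change of +0.07 (SE 0.0936, limma adjusted p = 0.986). Its coding probe varied 5.69-fold (percentile 92.1), with means of 0.47 ± 0.77 and 0.97 ± 0.57 (SD, n = 8 each) and a change of −0.49 (SE 0.31, 95% interval −1.15 to 0.16, limma adjusted p = 0.977). The probes of CCL19 had r = 0.207 over 16 pigs, so the level of this gene depends on the probe that stands for it, as does that of CXCL12.

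**Figure D2:**
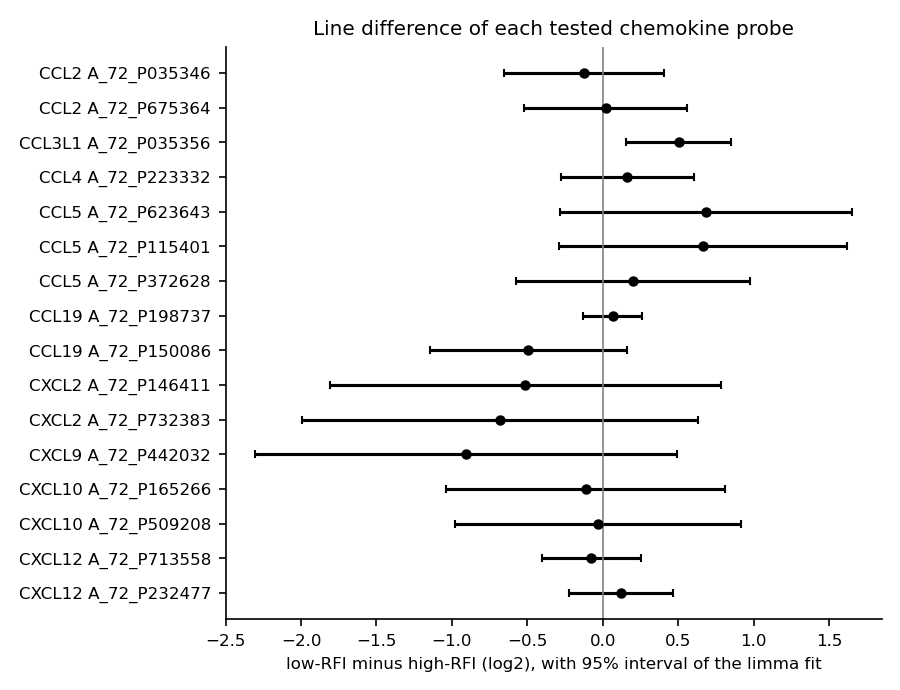
Change of each tested chemokine probe, low-RFI minus high-RFI on the log2 scale (x axis), with the 95% interval of the limma fit on 8 pigs per line. Only the CCL3L1 interval (0.15 to 0.85) lies off 0, before adjustment over 30097 probes.

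Some pigs were among the highest or lowest for several of these genes. Low-RFI pig 5 and high-RFI pig 5 were both among the 3 highest pigs for CCL4, CCL5, CXCL9 and CXCL10. Both lay on slide 2 and in the second series of sample numbers, and neither array was marked. They also share replicate number 5, and their deviations from the line means had the highest r of all same-numbered pigs (0.395). Whether the 2 pigs are related was not tested. Low-RFI pig 4 was the lowest of all pigs for CCL4, CXCL2 and CXCL10. The other pattern was in low-RFI pig 1 and high-RFI pig 2, which were among the 3 highest for both CCL2 and CXCL2. Over the 36 pairs of the 9 tested genes, the line-centred r ran from −0.61 to 0.73 with a median of 0.08, and 6 pairs were above 0.5. These were CCL5 with CXCL9 (0.73), CCL3L1 with CCL4 (0.73), CCL2 with CXCL2 (0.72), CCL4 with CXCL9 (0.70), CCL4 with CXCL10 (0.57) and CXCL9 with CXCL10 (0.56). The lowest were CCL2 with CCL5 (−0.61) and CCL2 with CXCL9 (−0.53). All pairs share the arrays and their scaling, and these values are a description.

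**Figure D3:**
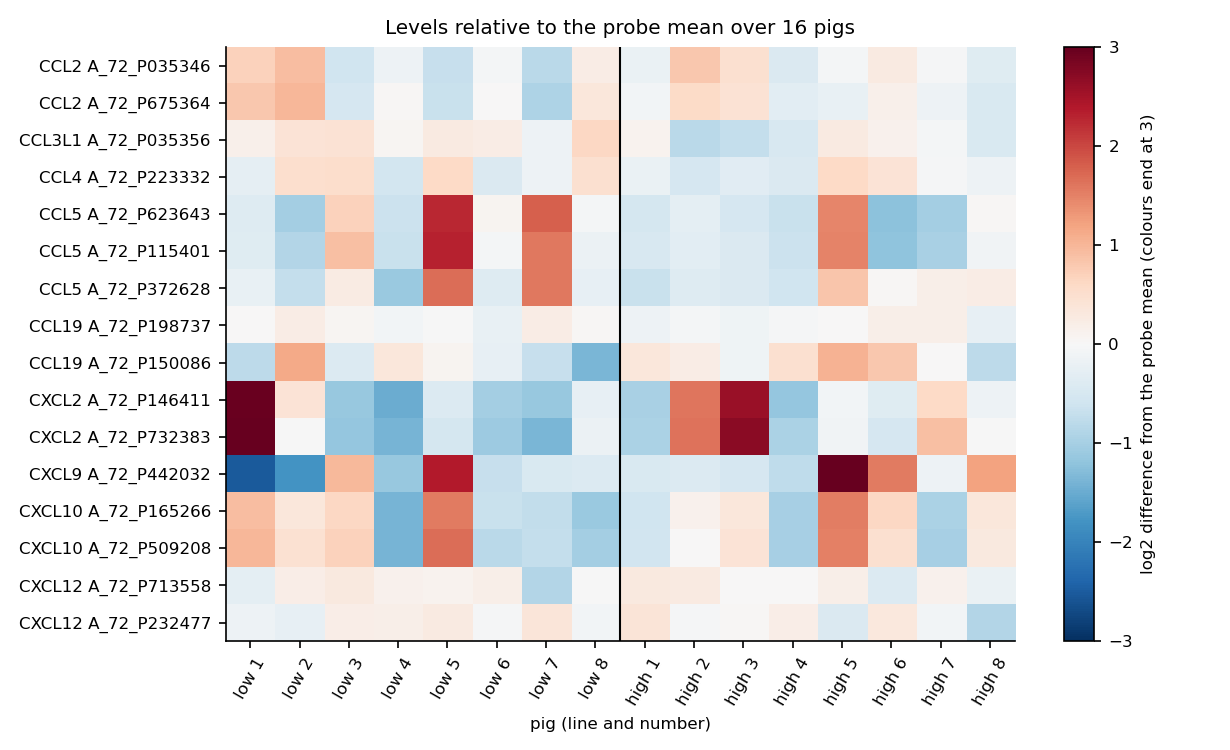
Difference of each tested chemokine probe (rows) from its mean over the 16 pigs (columns, low-RFI left of the line), log2, with colours ending at 3. The CXCL9, CXCL10 and CCL5 probes are high together in low-RFI pig 5 and high-RFI pig 5, and the CXCL2 probes in low-RFI pig 1 and high-RFI pigs 2 and 3.

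Of the possible pairs, 5 of related ligands were tested on line-centred levels with two-sided permutation tests, adjusted over the 5 (Benjamini-Hochberg). These tests took the pigs as independent. Deviations of same-numbered pigs from the line means correlated at 0.0474 to 0.395, and the p-values do not allow for this. The neighbours CCL3L1 and CCL4 moved together over the 16 pigs, with Pearson r = 0.729 (permutation p = 0.00182, adjusted 0.00455) and Spearman rho = 0.688 (permutation p = 0.00392, adjusted 0.0098). Without the 2 pigs farthest from the median in CCL3L1, r was 0.644 (adjusted permutation p = 0.0377). Alone, the low-RFI line had r = 0.703 (exact permutation p = 0.0568, adjusted 0.142) and the high-RFI line r = 0.828 (exact permutation p = 0.00846, adjusted 0.0211). With levels centred within slide as well, r was 0.737, and within the number series 0.645.

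CXCL2 and IL8 also moved together, with r = 0.732 (permutation p = 0.00159, adjusted 0.00455) and rho = 0.715 (permutation p = 0.00261, adjusted 0.0098). Without the 2 pigs farthest in CXCL2, r was 0.731. The low-RFI line alone had r = 0.841 (exact permutation p = 0.00454, adjusted 0.0227) and the high-RFI line r = 0.603 (exact permutation p = 0.113, adjusted 0.189). Within slide r was 0.695, and within number series 0.728. IL8 was near background in 9 of the 16 pigs, and under normexp background correction r fell to 0.319 (adjusted permutation p = 0.348).

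CXCL9 and CXCL10 had r = 0.556 (permutation p = 0.0258, adjusted 0.043) but rho = 0.365 (permutation p = 0.166, adjusted 0.277). Without low-RFI pig 5 and high-RFI pig 5, r was 0.123 (permutation p = 0.675), so the r over both lines depended on these pigs. The high-RFI line alone had r = 0.835 (exact permutation p = 0.00801, adjusted 0.0211) and rho = 0.786 (exact permutation p = 0.0279, adjusted 0.0698). This line was not recomputed without its pig 5. The low-RFI line alone had r = 0.354 (exact permutation p = 0.394, adjusted 0.478) and rho = 0.167 (exact permutation p = 0.703, adjusted 0.879). The difference between lines was not tested. Within slide r was 0.543 (adjusted permutation p = 0.0513) and within number series 0.624 (adjusted permutation p = 0.0172). The pairs with CCL5 did not pass. CCL4 with CCL5 had r = 0.319 and rho = 0.291 (adjusted permutation p = 0.288 and 0.341). CCL3L1 with CCL5 had r = −0.030 and rho = −0.15 (adjusted permutation p = 0.910 and 0.576).

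**Figure D4:**
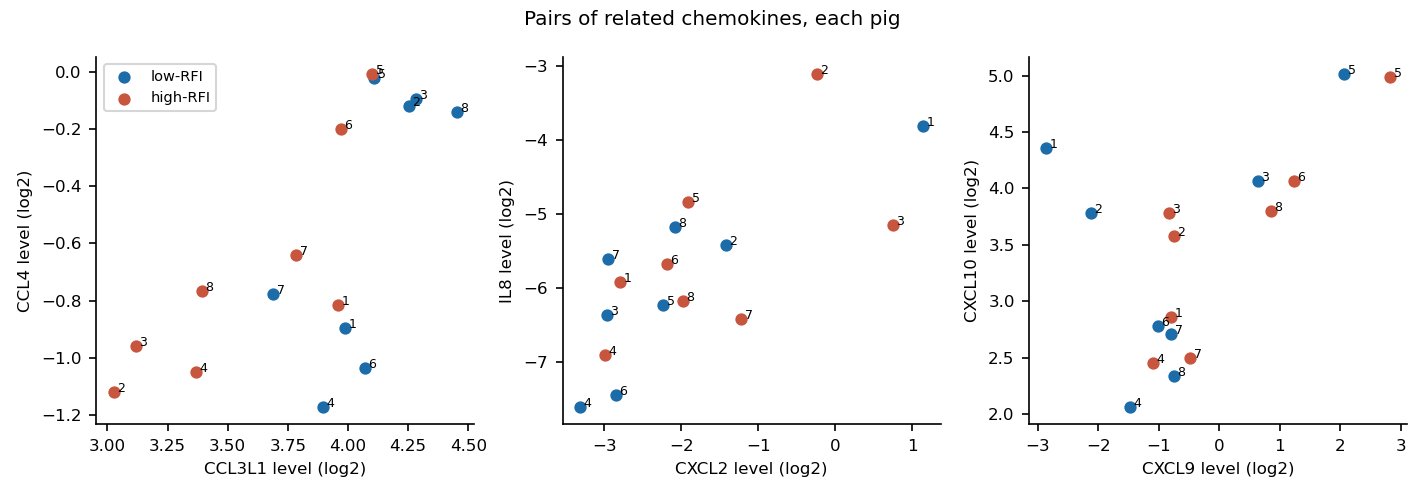
Levels (log2, against the array's 75th percentile) of CCL3L1 and CCL4, of CXCL2 and IL8, and of CXCL9 and CXCL10 in each pig, coloured by line and numbered by replicate. In the CXCL9 and CXCL10 panel, pig 5 of each line sits at the upper right and low-RFI pigs 1 and 2 at the left with CXCL10 levels of 4.36 and 3.79.

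Among 4022 other named genes, the 3 with the highest line-centred r to each chemokine over the 16 pigs were taken as a description. CCL5 was closest to CD8A (0.932), LCK (0.928) and CD3E (0.916), parts of the T cell receptor machinery. CD8A stood at −1.05 or higher in low-RFI pigs 3, 5 and 7 and high-RFI pig 5, and at −2.16 or lower in all others, the same division as for CCL5. CXCL9 was closest to ICOS (0.906), a costimulatory receptor of T cells, KCNAB2 (0.903), a potassium channel subunit, and LAG3 (0.877), an inhibitory receptor of activated T cells. ICOS was highest in high-RFI pig 5 (−0.76) and low-RFI pig 5 (−1.14), as CXCL9 was. Of the T and NK cell markers, 12 of 13 had an r above 0.5 with CXCL9 (median 0.71) and 10 of 13 with CXCL10 (median 0.57), against 6.04% and 7.88% of all named genes. Their part in these values was not tested either.

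CXCL10 was closest to IFNG (0.937), interferon gamma itself, although the IFNG probe was well above background on only 8 arrays. IFNG was highest in low-RFI pig 5 (−3.58) and high-RFI pig 5 (−3.63) and lowest in low-RFI pig 4 (−6.34), which were also the highest and lowest pigs for CXCL10. GP91-PHOX (0.835) and NCF1 (0.824), subunits of the phagocyte oxidase, followed. Of 7 Kupffer cell and macrophage markers, 5 (CD163, VSIG4, C1QA, AIF1 and CTSS) had an r above 0.5 with CXCL10, with a median of 0.68 over the 7. The summed level of that list was 7.0 to 7.84 over low-RFI pigs and 7.02 to 7.81 over high-RFI pigs, 0 of 7 were called, and their part in the CXCL10 values was not tested.

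CXCL2 was closest to NFKBIA (0.948), the inhibitor that NF-kappa-B induces to brake itself, then to CYR61 (0.895), a matricellular protein, and IRF1 (0.861), an interferon-induced transcription factor. NFKBIA was highest in low-RFI pig 1 (7.47), followed by high-RFI pig 3 (6.36). Of 28 tested inducers and brakes of chemokine genes, 8 had an r above 0.5 with CXCL2, namely IRF1, IL18, NFKB2, NFKBIA, NFKBIE, JUN, FOS and SOCS3, against 2.81% of all named genes. The median r over the 28 was 0.31, against −0.02 over all named genes. This was not particular to CXCL2. With CCL2, 8 of the 28 had an r above 0.5 (median 0.33), against 4.28% of all named genes. With CXCL10 it was 9 (median 0.29), against 7.88%, and with each other tested member 0 to 4. No T and NK cell marker had an r above 0.5 with CXCL2 (median −0.11). CCL2 shared CYR61 (0.817) with CXCL2 and was also close to PTGS2 (0.794), the inducible prostaglandin synthase, and TGFB3 (0.778). All 13 T and NK cell markers had a negative r with CCL2 (−0.61 to −0.08).

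**Figure D5:**
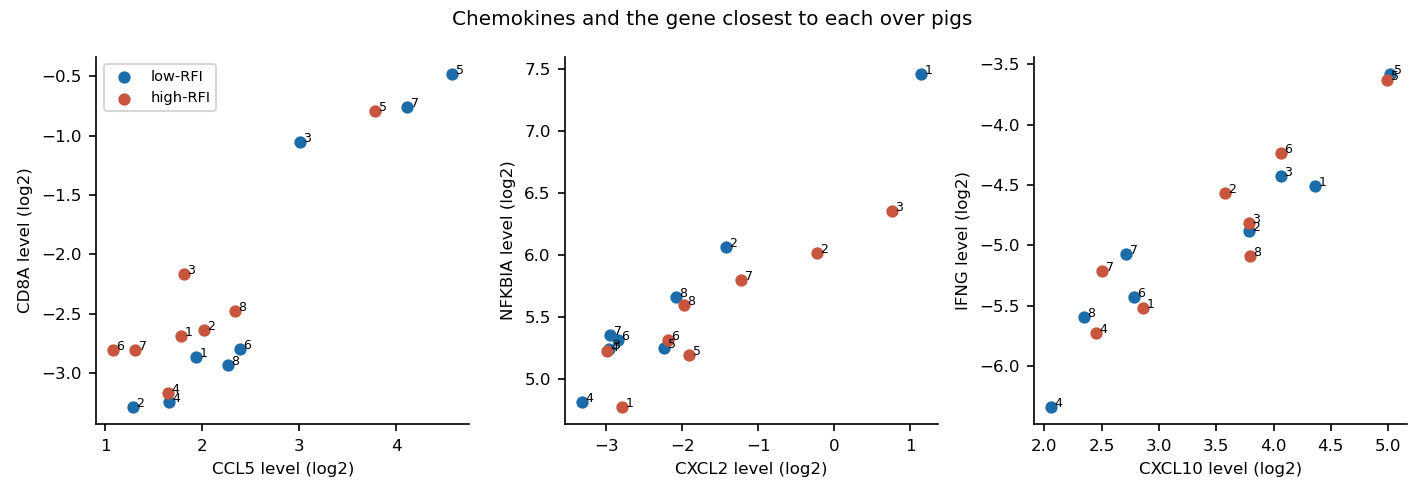
Levels (log2, against the array's 75th percentile) of CCL5 and CD8A, CXCL2 and NFKBIA, and CXCL10 and IFNG in each pig, coloured by line and numbered by replicate. Low-RFI pigs 3, 5 and 7 and high-RFI pig 5 stand apart in the CCL5 panel, and low-RFI pig 1 in the CXCL2 panel, and pigs of both lines are mixed along each relation.

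Of the remaining members, CCL4 was closest to CFL1 (0.779), CD274 (0.778), the ligand of the PD-1 checkpoint, and LGALS2 (0.760). CCL3L1 was closest to HDGF (0.821), SSTR1 (0.704), whose probe was well above background on 9 arrays, and ATP5J2 (0.702). The leading CXCL12 probe was closest to AP1B1 (0.826), GTF3C4 (0.786) and TRIM10 (0.779), and the leading CCL19 probe to RHCE (0.757), WTAP (0.732) and UBE2D1 (0.721).

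The rest of the chemokine system was described from lists. Of 26 chemokine receptors, 13 were on the array and 12 tested, and 0 were called between the lines. ACKR4, a decoy receptor that removes CCL19 and CCL21, had a change of +0.64 (SE 0.223, limma adjusted p = 0.700), and CCR9, the CCL25 receptor, of −0.37 (SE 0.135, limma adjusted p = 0.708). These were the receptors with an unadjusted p under 0.05, and the median change of the 12 was −0.02. CXCR4, the CXCL12 receptor, was at +0.32 and CCR2, the CCL2 receptor, at −0.21.

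Of 29 other chemokines 15 were on the array and 12 tested, with 0 called, 9 with a lower and 3 with a higher low-RFI mean, and a median change of −0.22. CCL27 (−0.48, SE 0.213, limma adjusted p = 0.893) had an unadjusted p under 0.05, and CCL8 (−0.99, SE 0.505), CCL28 (−0.48) and CCL21 (+0.39) came next. Of these 12, CCL20 had the highest r with CXCL2 (0.83). None of the 28 tested inducers and brakes had an unadjusted p under 0.05. The smallest p belonged to IRF3 (+0.23), TLR3 (+0.22), TNFRSF1A (+0.18) and IFNGR2 (+0.33), and the median change was +0.09. Of 10 tested genes of chemokine processing and adhesion, SELP, the selectin of activated endothelium and platelets, was at +0.70 (SE 0.251, limma adjusted p = 0.708). SDC4 was at +0.21, MMP2 at −0.27 and DPP4, the protease that trims CXCL10 and CXCL12, at −0.11, with 0 of 10 called.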

How the data were processed

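Liver RNA of each pig was labelled with Cy3 and hybridised to an Agilent porcine array, 1 pig per array. Per the file headers, scans were read with Feature Extraction 10.7.3.1, and the processed signal is a background-subtracted intensity not normalised between arrays. The mean and background signals used for normexp are raw intensities, per the file headers. The authors' deposited values are log2 levels of 27938 spots, equal to the log2 processed signal minus a constant for each array (largest difference 4.5e-08). The submitters' processing notes name R 2.10.0.

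Here 183 outlier spots were dropped, each array was scaled by subtracting its 75th percentile on the log2 scale, and spots of a probe were averaged. Of 43603 probes, 30097 were tested, those well above background on at least 8 arrays. Lines were compared with limma 3.58.1 in R 4.3.3, with the data.table package (1.17.8), and Benjamini-Hochberg adjustment over all tested probes (threshold 0.05). The analysis was tested on simulated data. Correlations used 100000 permutations over 16 pigs and all permutations within a line, two-sided, with scipy 1.17.1, numpy 2.4.6 and pandas 2.3.3 in Python 3.11.15, and figures were drawn with matplotlib 3.10.9. Labels give separate pigs per line, each with 1 array, so p-values measure spread between pigs together with that between their arrays. The main fits and the permutations took the pigs as unpaired. Precision is limited by the number of arrays (median SE 0.16 over tested probes).

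Genes were named from the files, and current symbols and neighbours from RefSeq's pig gene list (assembly Sscrofa11.1). Named genes were every member, up to 4 genes of smallest p per pathway list, and the 3 genes most like each member. Pigs that were highest or lowest for 3 or more members were to be named; other pigs, CCL20 and the list genes named for their r to a member were named after their values were seen. The hepatocyte, T and NK cell and Kupffer cell lists are used above. Lists of B and plasma cells (1 tested marker), granulocytes (4), stellate cells (7) and endothelium (9) also had 0 called markers. The members and lists were chosen with earlier results of these data known. Alternatives were normexp (offset 50), quantile normalisation, the authors' table, other filters, slide, number series, array position and replicate number as blocks, array noise as a covariate, the mean over probes, and leaving out each pig or the 5 marked arrays. Array position, the marked arrays, and the pairs without high-RFI pig 6 or centred within number series were added after seeing the data. Correlations of chemokine receptors with the members are not reported here.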

Additional observations from a re-analysis of the deposited data

Results flagged for a closer look

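In 4 of 32 groups of 8 pigs (16 tested chemokine probes in 2 lines), the highest pig lay farther from its nearest neighbour, as a share of the whole range, than Dixon's critical value of 0.526. Chance gives such a gap at either end, for the highest or the lowest pig, in about 1 in 20 groups. For the highest pig alone it is rarer, and probes of the same gene are not independent.

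High-RFI pig 5 stood out for CCL5 on its leading probe A_72_P623643, at a level of 3.78 with the next high-RFI pig at 2.34, and on A_72_P115401, at 0.86 against −0.74. All 13 tested T and NK cell markers were above their 16-pig mean in this pig. Low-RFI pig 1 stood out for CXCL2 on A_72_P146411, at 1.14 with the next low-RFI pig at −1.42, and on A_72_P732383, at −0.27 against −3.27. NFKBIA was also highest in that pig, at 7.47. The cause was not tested for either pig.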

How the results depend on the processing

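The count of called chemokine probes was 0 under every alternative for which a fit was made, with the lowest adjusted p of a chemokine gene at 0.515 over 243 recomputed changes. The mean over a gene's probes was computed as a value with no test. The count over all probes was 3, and became 1 with a filter on all 16 arrays, 0 with array noise as a covariate, 0 without the 5 marked arrays, and 2 to 5 when each pig was left out (5 without low-RFI pig 2 or without high-RFI pig 4). With the replicate number as a block it was 4, and 0 chemokines were called. Whether the replicate numbers pair the pigs is not given in the labels. Same-numbered pigs correlated at 0.0474 to 0.395, against a median of −0.0386 for other numbers, and 11 of 16 correlated best with their own number. As a block, the number lowered the SE for CCL2, CCL4, CCL5, CXCL9 (0.663 to 0.362) and CXCL10. It raised the SE for CCL3L1, CCL19, CXCL2 and CXCL12. Correlations of chemokine pairs were not recomputed with this block.

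Of 144 gene changes with 1 pig left out 4 reversed, and of 105 others 10 did; the cause was not tested. With array noise as a covariate CCL2 was +0.34, CXCL2 +0.57 and CXCL10 +0.48. Without the marked arrays CCL2 was +0.11, CCL19 −0.015 and CXCL10 +0.077. CCL2 was +0.021 with array position as a block, CCL19 −0.0097 under normexp. As means over probes CCL19 was −0.21 and CXCL12 +0.024. With each pig left out CXCL10 ran from −0.35 to 0.10 and CXCL12 from −0.14 to 0.046.

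The r of CXCL9 with CXCL10 lost its call under normexp (0.566, adjusted permutation p = 0.0557), within slide (0.543), without high-RFI pig 6 (0.540, adjusted permutation p = 0.0605) and without its 2 farthest pigs (0.123). CXCL2 with IL8 lost it under normexp (0.319). CCL3L1 with CCL5, not called, turned to 0.124 under normexp, 0.189 without centring and 0.0539 without high-RFI pig 6, and CCL4 with CCL5 to −0.155 without its 2 farthest pigs. Signal over background limits IL8 and IFNG most, with 7 and 8 arrays well above it.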
